A study of Mus musculus with 12 samples.

Results

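The vascular endothelial growth factor (VEGF) ligands and receptors were followed through the endothelium of mouse ear skin. The set held 8 genes of the 30743 that had a named row on the array: the ligand genes Vegfa, Vegfb, Vegfc and Pgf, the receptor genes Flt1, Kdr and Flt4, and the co-receptor gene Nrp2. The genes were chosen by name, each had 1 row in the deposited table, and all 8 were bright enough to be among the 19745 genes tested.

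The study compared 4 sorted cell populations, each with 3 arrays. All mice were C57BL6, 5 weeks old by the study's design text and adult by the sample labels, and all carried Tg(Prox1-EGFP)KY221Gsat, a transgene that places a green fluorescent protein under the lymphatic Prox1 gene's control. Cells were enriched with beads against PECAM1, an adhesion molecule of all endothelium. Lymphatic endothelial cells (LEC) were then sorted as positive for podoplanin and the reporter, and divided by surface LYVE1, a hyaluronan receptor. High LYVE1 marked the blind-ended capillaries (cap LEC), intermediate LYVE1 the pre-collecting vessels (pre-col LEC), and low or absent LYVE1 the collecting vessels (col LEC). The blood endothelial cells (BEC) were sorted for PECAM1 and for lack of the lymphatic markers. The labels call the arrays of a group biological replicates. They do not say whether a replicate is 1 mouse or a pool of mice, so the p-values measure the spread between these arrays. Because the groups rest on LYVE1 level and not on dissected vessels, each group is a range of LYVE1 and may hold cells of neighbouring vessel types.

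VEGF ligands are secreted dimers that activate receptor tyrosine kinases on endothelium. VEGF-A, the main driver of blood vessel growth, binds VEGFR1 (encoded by Flt1) and VEGFR2 (encoded by Kdr), while VEGF-B and placental growth factor (Pgf) bind VEGFR1 only. VEGF-C drives the growth of lymphatic vessels through VEGFR3 (encoded by Flt4), and neuropilin-2 (Nrp2) is a co-receptor that binds VEGF-C and helps lymphatic sprouting. VEGFR1 binds VEGF-A tightly but signals weakly, and its soluble form acts as a trap for the ligand.

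The cell labels were set beside markers other than the 8 genes. Over 8 lymphatic markers, the mean log2 value of an array lay between 10.57 and 11.22 in LEC and between 6.98 and 7.80 in BEC. The value of 7.80 was that of BEC replicate 1, where Mmrn1 read 9.84, against 6.55 and 6.52 on the other BEC arrays. Prox1, Lyve1, Pdpn and Reln were also highest there among BEC, while Foxc2, Stab2 and Thy1 were not. The 8 markers include Prox1, Lyve1 and Pdpn, which the sort used through the reporter or the surface protein. The lymphatic mean is therefore not an independent check of the labels. Over 8 blood endothelial markers, it lay between 8.57 and 9.18 in LEC and between 11.27 and 11.44 in BEC. Markers of mural cells, the pericytes and smooth muscle cells around vessels, were also unequal. Over 13 such genes, BEC arrays lay between 8.91 and 9.15, cap LEC between 6.90 and 7.40, col LEC between 6.97 and 7.05 and pre-col LEC between 7.16 and 8.08. Of the 13, 12 were lower in LEC than in BEC by limma's test (adjusted p under 0.05), which 22.5% of all genes tested passed in either direction. The top mural value among LEC was that of pre-col LEC replicate 1, which also had the highest fibroblast mean (8.43, against 6.87 to 7.65 on the other LEC arrays) and the highest blood endothelial mean (9.18). Keratinocyte means (6.44 to 7.09 over 12 genes) and macrophage means (6.41 to 6.94 over 12 genes) lay near the array medians of 6.04 to 6.17. Of the keratinocyte list 8 of 12 genes were bright enough to test, and 3 of them were lower in LEC than in BEC, beside the 22.5% of all genes. Among these genes Sfn read 8.69 to 8.98 in BEC and 7.32 to 8.01 in LEC, while Krt1, Trp63 and Dsg3 were below the array median on every array. Of the macrophage list 9 of 12 were tested, and 1 was higher and 1 lower in LEC, close to the share of 22.5% of all genes. Adgre1, Itgam and Cd163 were below the array median on every array. Mrc1, which lymphatic endothelium is known to express too, read 10.02 to 10.29 in cap LEC and 5.75 to 5.84 in BEC, and Cd68 reached 9.31. The part of other cell types in the results was not tested beyond the values given.

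The promoters of the 3 receptor genes and of Vegfc are shown because these genes gave the widest range of behaviour between LEC and BEC. Flt1 and Vegfc were lower in LEC than in BEC, Flt4 was higher, and Kdr differed by little. Each line gives the 250 bases before a RefSeq transcription start site (build GRCm38.p6), 5′ to 3′ on the gene's strand, and capitals mark matches to the 6 short motifs searched. The windows are chr5:147726012-147726261 (minus strand) for Flt1, chr5:75978456-75978705 (minus strand) for Kdr, chr11:49609429-49609678 (plus strand) for Flt4 and chr8:54077282-54077531 (plus strand) for Vegfc.
Flt1: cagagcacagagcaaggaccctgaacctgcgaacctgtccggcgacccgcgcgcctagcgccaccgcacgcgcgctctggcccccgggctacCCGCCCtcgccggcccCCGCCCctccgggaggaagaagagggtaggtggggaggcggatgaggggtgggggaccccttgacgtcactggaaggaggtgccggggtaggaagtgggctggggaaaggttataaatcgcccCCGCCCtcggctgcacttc
Kdr: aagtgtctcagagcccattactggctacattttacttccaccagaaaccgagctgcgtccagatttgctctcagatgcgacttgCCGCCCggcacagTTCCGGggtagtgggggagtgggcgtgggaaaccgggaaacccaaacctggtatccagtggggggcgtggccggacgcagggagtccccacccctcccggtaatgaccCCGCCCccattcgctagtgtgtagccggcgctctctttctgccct
Flt4: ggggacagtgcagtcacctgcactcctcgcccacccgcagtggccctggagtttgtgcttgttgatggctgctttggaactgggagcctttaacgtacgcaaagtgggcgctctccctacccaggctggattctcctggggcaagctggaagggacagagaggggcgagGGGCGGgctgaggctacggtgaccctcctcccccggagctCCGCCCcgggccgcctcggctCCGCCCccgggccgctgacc
Vegfc: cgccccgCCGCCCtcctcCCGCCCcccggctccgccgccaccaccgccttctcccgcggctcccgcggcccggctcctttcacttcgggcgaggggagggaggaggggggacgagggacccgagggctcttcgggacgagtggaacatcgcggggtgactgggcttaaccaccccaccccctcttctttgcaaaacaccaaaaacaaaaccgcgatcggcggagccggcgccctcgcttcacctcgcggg
Motifs were read on both strands over 250 bases before and 50 after the start site, and no match overlapped another in the printed windows. Vegfa and Pgf had 2 RefSeq windows each, of which only the first listed was searched. Bases further upstream were not searched for any gene. The SP1 box GGGCGG stood in the windows of all 8 genes, from 2 matches in Vegfa, Vegfc, Pgf and Kdr to 5 in Nrp2, against 35.7% of 32851 RefSeq windows of the same length. An ETS core, CCGGAA, was present among the 8 genes in Kdr only, and 14.9% of all windows held it. A GATA core, spelled AGATAA, was present in Vegfa only, beside 11.2% of all windows. A hypoxia response core (ACGTG, in 19.6% of all windows) had no match in the 8 windows. The same held for a SOX core (AACAAT, in 10.7% of all windows) and for a forkhead core (GTAAACA, in 3.65% of all windows). The 250 bases before the start site were 59.2% to 76.4% G or C in the 8 genes, with Vegfa lowest and Vegfb highest. The SP1 box holds only G and C, and the share of G and C in all RefSeq windows was not measured. Its count in the 8 genes was therefore not set against windows of like composition. The printed promoters of genes that were lower and higher in LEC held the same box, and a match is a string of letters, not a site shown to be bound.

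Lymphatic cells were first set against blood endothelial cells. Flt1 was lower in LEC by 32.2-fold and Vegfc by 4.93-fold, Flt4 was higher by 6.51-fold and Vegfb by 1.39-fold, and Kdr differed by 1.08-fold, which did not pass the test. The LEC values of Flt1 (from 6.51) and Vegfc (from 6.48) came close to the array medians of 6.04 to 6.17, where RMA compresses differences, so these folds may be too small. With the 3 LEC groups averaged and BEC subtracted (LEC mean minus BEC), limma's adjusted p was under 0.05 for 4 of the 8 genes, 2 up and 2 down, and for 22.5% of all genes tested. The arrays of the same 4 genes did not overlap between LEC and BEC, as was the case for 17.8% of all genes. By group, 5 of the 8 were called in cap LEC minus BEC (20.6% of all genes), 4 in pre-col LEC minus BEC (15.5%) and 5 in col LEC minus BEC (16.2%). The median log2 difference of the 8 genes was 0.36, beside -0.02 over all genes tested. In whole populations such as these, fewer cells of a type and less RNA per cell cannot be told apart. The values of the 8 genes are RMA values on a log2 scale, so a difference of 1 is a 2-fold change, and levels of different genes cannot be compared on it.

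**Figure D1:**
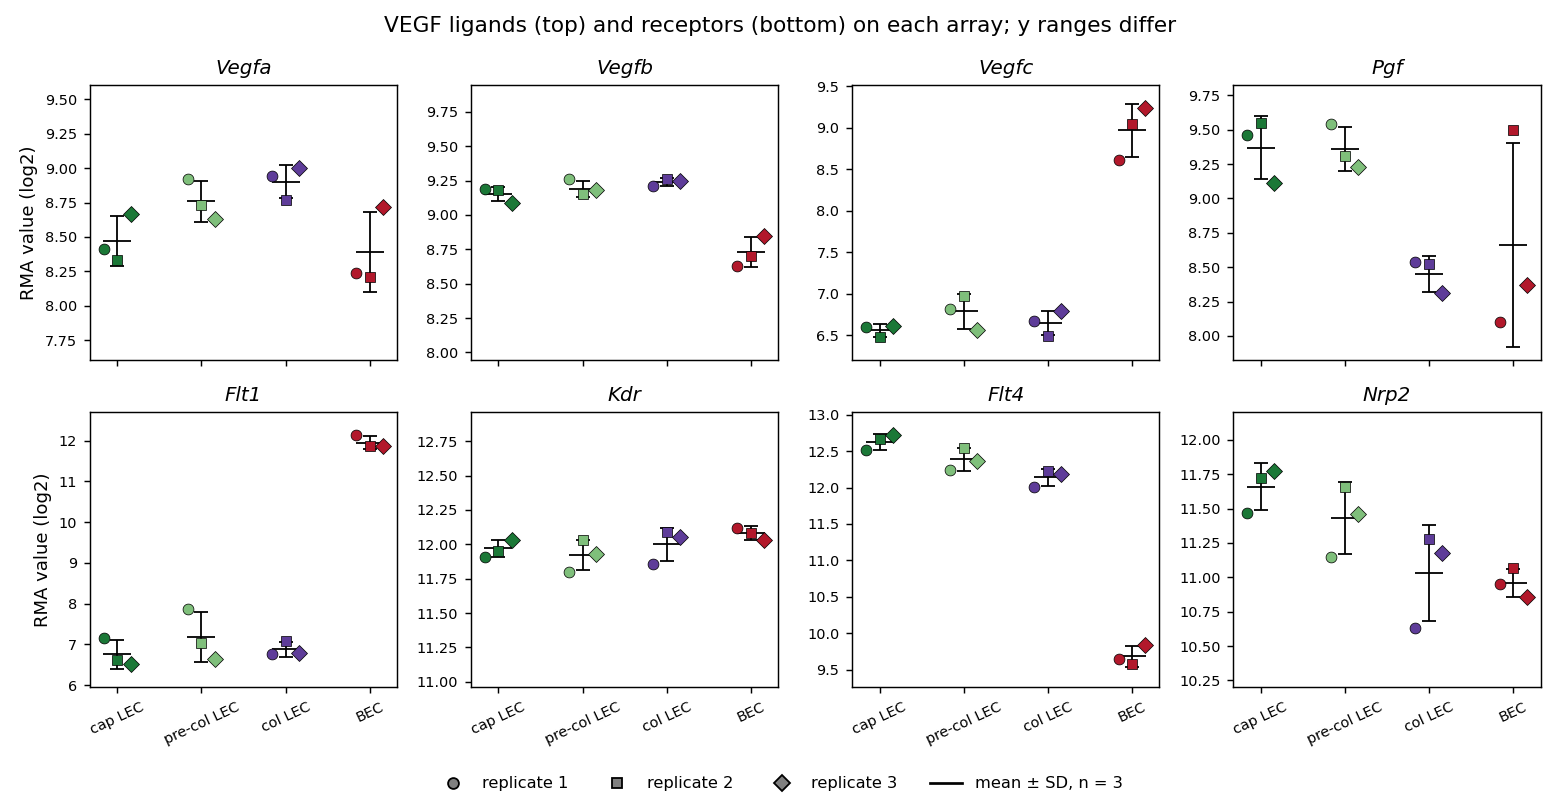
The 8 VEGF genes on each of the 12 arrays, as RMA values on a log2 scale (y axes differ in range), with replicates as circles, squares and diamonds and bars for mean ± SD (n = 3). The BEC values of Flt1 and Vegfc lie above all LEC values and those of Flt4 and Vegfb below them, while Pgf in BEC spreads from 8.10 to 9.50.

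Among the receptors, Flt1 (transcript cluster TC0500003629.mm.1) separated the populations most. It read 12.13, 11.86 and 11.86 on the BEC arrays, 7.17, 6.62 and 6.51 on the cap LEC arrays, 7.86, 7.04 and 6.65 on the pre-col LEC arrays and 6.76, 7.09 and 6.80 on the col LEC arrays. All BEC arrays were far above all LEC arrays, and the highest LEC value was that of pre-col LEC replicate 1. The difference of LEC mean minus BEC was -5.01 ± 0.21 (moderated SE, n = 3 arrays per group, limma adjusted p = 5.24e-09), the 9th lowest of the 19745 genes tested. By group it was -5.18 ± 0.26 for cap LEC, -4.77 ± 0.26 for pre-col LEC and -5.07 ± 0.26 for col LEC, with limma adjusted p between 3.48e-08 and 7.83e-08. These 3 comparisons share the BEC arrays. The 3 LEC groups did not differ beyond their spread, and the pre-col LEC minus cap LEC difference of 0.42 ± 0.26 (limma adjusted p = 0.816) rested mostly on replicate 1. Without pre-col LEC replicate 1, col LEC minus pre-col LEC went from -0.30 to 0.04. That array also held the highest blood endothelial and mural means among LEC, and their part in its Flt1 value was not tested.

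Kdr (TC0500002623.mm.1), the gene of the main signalling receptor for VEGF-A, was read at 11.91, 11.95 and 12.03 in cap LEC, 11.80, 12.03 and 11.93 in pre-col LEC, 11.86, 12.09 and 12.05 in col LEC and 12.12, 12.08 and 12.03 in BEC. The arrays of all 4 groups overlapped within a range of 11.80 to 12.12. LEC mean minus BEC was -0.12 ± 0.07 (limma adjusted p = 0.274), with a 95% interval from -0.27 to 0.04, or a ratio from 0.829 to 1.03. Among LEC groups the largest difference, col LEC minus pre-col LEC, was 0.08 ± 0.09. Scaling moved this gene: after cyclic loess normalization LEC mean minus BEC was -0.25 (limma adjusted p = 0.0241) and cap LEC minus BEC -0.28 (limma adjusted p = 0.0419).

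Flt4 (TC1100000519.mm.1), the receptor gene for VEGF-C, had the opposite profile to Flt1. It stood at 12.51, 12.67 and 12.72 in cap LEC, 12.24, 12.55 and 12.37 in pre-col LEC, 12.01, 12.23 and 12.19 in col LEC and 9.64, 9.57 and 9.84 in BEC. Every LEC array was above every BEC array by more than 2 log2 units, and BEC arrays were still well above the array medians of 6.04 to 6.17. LEC mean minus BEC was 2.70 ± 0.09 (limma adjusted p = 6.43e-10), the 63rd highest of the genes tested. The difference was 2.95 ± 0.11 for cap LEC, 2.70 ± 0.11 for pre-col LEC and 2.46 ± 0.11 for col LEC, each with limma adjusted p at or below 1.33e-08.

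The co-receptor gene Nrp2 (TC0100000509.mm.1) was at 11.47, 11.72 and 11.77 in cap LEC, 11.15, 11.66 and 11.46 in pre-col LEC, 10.63, 11.28 and 11.18 in col LEC and 10.95, 11.07 and 10.86 in BEC. Arrays of cap and pre-col LEC lay above all BEC arrays, while col LEC arrays lay on either side of them. In cap LEC Nrp2 was higher than in BEC by 0.70 ± 0.17 (limma adjusted p = 0.0128). Leaving out cap LEC replicate 3 (0.64, limma adjusted p = 0.0562) or BEC replicate 3 (0.65, limma adjusted p = 0.0526) ended the call. Pre-col LEC minus BEC was 0.47 ± 0.17 (limma adjusted p = 0.0985) and col LEC minus BEC 0.07 ± 0.17 (limma adjusted p = 0.832). The first of these passed limma's test when pre-col LEC replicate 1 (0.60, adjusted p = 0.0457) or col LEC replicate 1 (0.47, adjusted p = 0.0351) was left out. LEC mean minus BEC, 0.41 ± 0.14 with limma adjusted p = 0.0551, passed without replicate 1 of cap, pre-col or col LEC (adjusted p = 0.0467, 0.029 and 0.00895). The related gene Nrp1, whose row names a microRNA as well, was not analysed here.

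**Figure D2:**
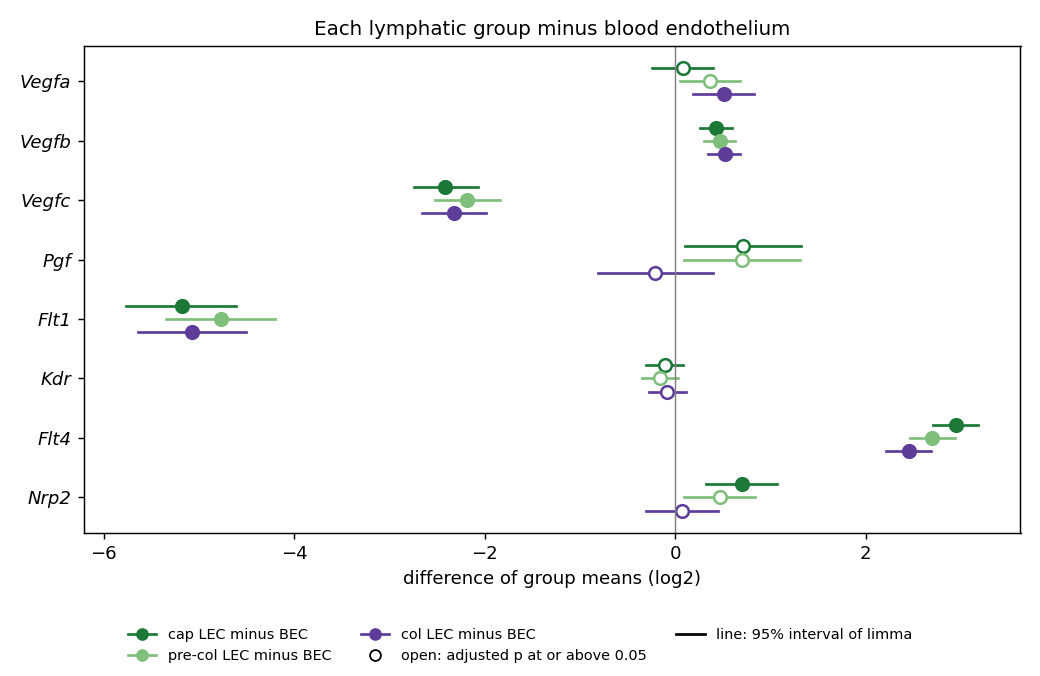
Difference of each LEC group minus BEC for the 8 genes on the log2 scale, with the 95% interval of limma as a line. Filled points have an adjusted p under 0.05: Flt1 lies far to the left between -5.18 and -4.77, Vegfc between -2.41 and -2.18, Flt4 lies to the right between 2.46 and 2.95, and Kdr and Pgf have open points only.

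Of the ligands, Vegfc (TC0800000587.mm.1) had the largest difference between LEC and BEC. BEC arrays stood at 8.61, 9.05 and 9.24, against 6.60, 6.48 and 6.61 in cap LEC, 6.82, 6.98 and 6.56 in pre-col LEC and 6.67, 6.49 and 6.79 in col LEC. All BEC arrays were above all LEC arrays, and the LEC values lay close to the array median, where RMA compresses differences. For LEC mean minus BEC the difference was -2.30 ± 0.13 (limma adjusted p = 4.98e-08), the 135th lowest of the genes tested. It was -2.41 ± 0.16 for cap LEC, -2.18 ± 0.16 for pre-col LEC and -2.32 ± 0.16 for col LEC, with limma adjusted p between 2.85e-07 and 7.84e-07. The mural markers, which were higher in BEC (8.91 to 9.15) than in LEC (6.90 to 8.08), moved with this difference, and their part in it was not tested. On pre-col LEC replicate 1, the LEC array with the highest mural mean, Vegfc read 6.82. That value lay between those of the other pre-col LEC arrays (6.98 and 6.56) and above all cap and col LEC arrays.

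Vegfb (TC1900001027.mm.1), which encodes a ligand of VEGFR1, had the narrowest spread of the ligands. It read 9.19, 9.18 and 9.09 in cap LEC, 9.26, 9.15 and 9.18 in pre-col LEC, 9.21, 9.26 and 9.25 in col LEC and 8.63, 8.70 and 8.85 in BEC. All 9 LEC arrays lay above all 3 BEC arrays. The LEC mean minus BEC difference was 0.47 ± 0.06 (limma adjusted p = 0.000125), and the groups gave 0.52 ± 0.08 for col LEC, 0.47 ± 0.08 for pre-col LEC and 0.43 ± 0.08 for cap LEC, each with limma adjusted p at or below 0.00154. The 3 LEC groups differed by at most 0.09 ± 0.08.

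Vegfa (TC1700002162.mm.1) stood at 8.24, 8.21 and 8.72 in BEC, 8.41, 8.33 and 8.67 in cap LEC, 8.92, 8.73 and 8.63 in pre-col LEC and 8.94, 8.77 and 9.0 in col LEC. The col LEC arrays lay above all BEC and all cap LEC arrays, and BEC replicate 3 lay above the other BEC arrays. In col LEC Vegfa was higher than in BEC by 0.51 ± 0.14 (limma adjusted p = 0.0314). This call was lost without col LEC replicate 1 or 3 (0.49 and 0.46, limma adjusted p = 0.0869 and 0.111) and without BEC replicate 1 or 2 (0.43 and 0.42, limma adjusted p = 0.0969 and 0.103). It was also lost after cyclic loess (0.44, limma adjusted p = 0.0797), after quantile normalization (0.45, limma adjusted p = 0.0705) and with only col LEC and BEC in the fit (0.51, limma adjusted p = 0.0714). LEC mean minus BEC was 0.32 ± 0.12 (limma adjusted p = 0.0768). Without BEC replicate 3 it was 0.48 (limma adjusted p = 0.0086), and pre-col LEC minus BEC went from 0.37 (limma adjusted p = 0.126) to 0.53 (limma adjusted p = 0.0148).

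Pgf (TC1200002089.mm.1), the gene of placental growth factor, was split by 1 blood endothelial array. It stood at 8.10, 9.50 and 8.37 in BEC, 9.46, 9.55 and 9.11 in cap LEC, 9.54, 9.31 and 9.23 in pre-col LEC and 8.54, 8.52 and 8.31 in col LEC. BEC replicate 2 lay among the cap and pre-col LEC arrays, and the other BEC arrays lay near the col LEC arrays. With all arrays, cap LEC minus BEC was 0.71 ± 0.28 (limma adjusted p = 0.0944), pre-col LEC minus BEC 0.70 ± 0.28 (limma adjusted p = 0.127) and col LEC minus BEC -0.21 ± 0.28 (limma adjusted p = 0.694). Without BEC replicate 2, cap LEC minus BEC became 1.13 (limma adjusted p = 0.000286), pre-col LEC minus BEC 1.12 (limma adjusted p = 0.000345), and LEC mean minus BEC went from 0.40 (limma adjusted p = 0.235) to 0.82 (limma adjusted p = 0.000826). The latter moved the other way without BEC replicate 1 (0.13, limma adjusted p = 0.713) and with array weights (0.05, limma adjusted p = 0.902), so its size is not settled by these arrays. Col LEC minus BEC turned to 0.22 (limma adjusted p = 0.403) without BEC replicate 2. On BEC replicate 2 the lymphatic marker mean was 6.98, the lowest of the 3 BEC arrays, and the mural and blood endothelial means were 9.15 and 11.44, the highest of the 3. The part of these cell types in the Pgf value of that array was not tested.

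The lymphatic groups were next set against each other, along the LYVE1 gradient from capillary to collecting vessel. Flt4, Nrp2 and Pgf had lower means in col LEC than in cap LEC and Vegfa a higher one, but only Flt4 passed limma's test over all genes. In col LEC minus cap LEC, 1 of the 8 genes was called, where 1.63% of all genes tested were, and 5 had groups that did not overlap, where 20.7% of all genes did. In pre-col LEC minus cap LEC limma called 0 of the 8 and 0.0% of all genes tested, with 1 of the 8 (Flt4) and 1260 genes (6.38%) at an unadjusted p under 0.05. In col LEC minus pre-col LEC it called 0 of the 8, where 0.299% of all genes were called, and 3 of the 8 (Flt4, Nrp2 and Pgf) had an unadjusted p under 0.05, as did 5.83% of all genes. The arrays of 2 of the 8, Flt4 and Pgf, did not overlap in that comparison, as for 11.3% of all genes.

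**Figure D3:**
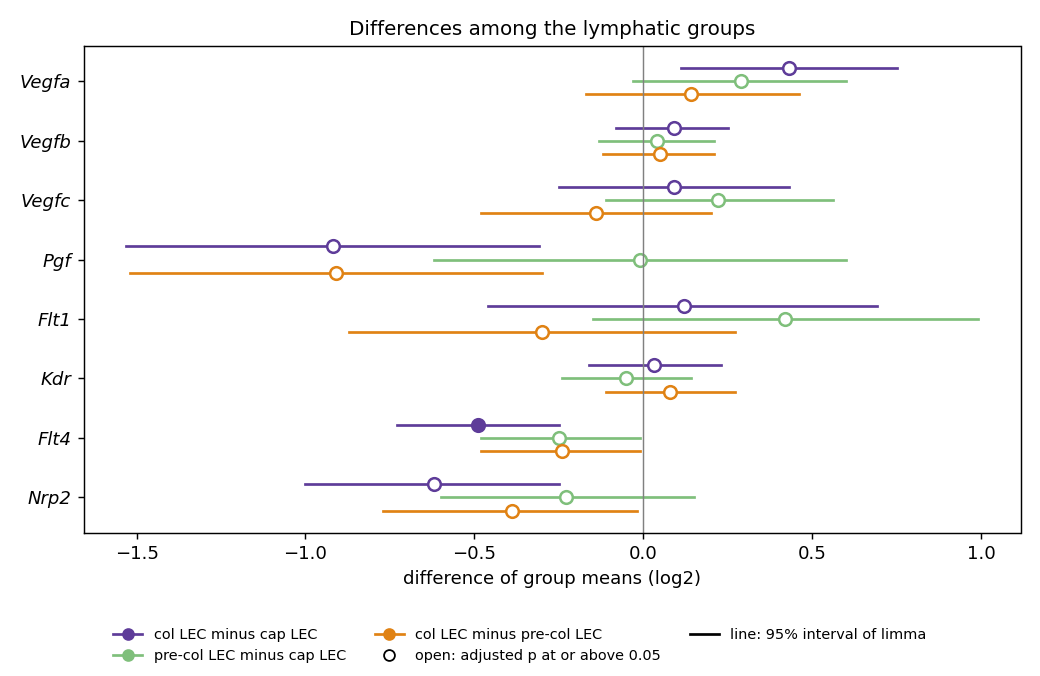
Differences among the 3 LEC groups for the 8 genes on the log2 scale, with the 95% interval of limma as a line. Only the col LEC minus cap LEC point of Flt4, at -0.49, is filled (adjusted p under 0.05), while the points of Pgf at -0.92 and Nrp2 at -0.62 are open.

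Flt4 followed the order cap LEC (12.63 ± 0.11, SD, n = 3), pre-col LEC (12.39 ± 0.16), col LEC (12.14 ± 0.12) and BEC (9.68 ± 0.14). Col LEC was lower than cap LEC by 1.4-fold, a log2 difference of -0.49 ± 0.11 (limma adjusted p = 0.0483), and their arrays did not overlap. The steps from cap to pre-col LEC and from pre-col to col LEC were 0.25 ± 0.11 and 0.24 ± 0.11, and neither passed limma's test (adjusted p = 0.775 and 0.819). The call between col and cap LEC sat at the threshold and was lost in 9 of the 12 fits that left out 1 array. Among these were all 6 without a cap or col LEC array, with adjusted p from 0.0636 without cap LEC replicate 1 (-0.55) to 0.191 without col LEC replicate 1 (-0.42) in limma's test. The difference lay between -0.55 and -0.42 in all 12. The call was also lost after cyclic loess (-0.46, limma adjusted p = 0.143), after quantile normalization (-0.46, adjusted p = 0.0907), with no filter on dim genes (adjusted p = 0.0618) and with only these groups in the fit (adjusted p = 0.0584). Lyve1, whose protein defined these groups, and Prox1 gave the frame for this order: Prox1 was read between 12.38 and 12.60 on all 9 LEC arrays, while Lyve1 ran from 13.15 down to 10.20.

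Nrp2 had the same order among LEC, with a cap LEC mean of 11.66 ± 0.17, a pre-col LEC mean of 11.43 ± 0.26 and a col LEC mean of 11.03 ± 0.35, above a BEC mean of 10.96 ± 0.10 (SD, n = 3). Neighbouring groups in this order overlapped, and no step between neighbours passed limma's test (adjusted p from 0.808 to 0.843). Col LEC minus cap LEC was -0.62 ± 0.17 (95% interval -1.0 to -0.25, limma adjusted p = 0.123), and all col LEC arrays lay below all cap LEC arrays. Without col LEC replicate 1, at 10.63 the lowest of the 12 arrays, it was -0.42. Over the 12 fits that left out 1 array, limma's adjusted p ran from 0.0955 to 0.365. In each LEC group, replicate 1 had the lowest Nrp2 and Flt4 values and the highest fibroblast and mural means. The fibroblast mean was 7.65 on col LEC replicate 1, against 6.87 and 6.97 on the other col LEC arrays. The part of other cell types in the order of Nrp2 and Flt4 was not tested.

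Pgf had the largest difference in size among the LEC groups. The cap LEC mean was 9.37 ± 0.23, the pre-col LEC mean 9.36 ± 0.16 and the col LEC mean 8.45 ± 0.13 (SD, n = 3), so that pre-col LEC stood with cap LEC. Col LEC minus cap LEC was -0.92 ± 0.28 (95% interval -1.53 to -0.31, limma adjusted p = 0.175), the 89th lowest of the genes tested, and col LEC minus pre-col LEC was -0.91 ± 0.28 (limma adjusted p = 0.429). All col LEC arrays lay below all other LEC arrays. The fit shares 1 estimate of the spread among all 4 groups, and for Pgf the BEC group had an SD of 0.74. Without BEC replicate 2 the same differences had a standard error of 0.13 and passed limma's test (adjusted p = 0.00618 and 0.0232), as did col LEC minus cap LEC with only those arrays in the fit (adjusted p = 0.0198).

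Vegfa ran the other way, from 8.47 ± 0.18 in cap LEC through 8.76 ± 0.15 in pre-col LEC to 8.90 ± 0.12 in col LEC (SD, n = 3), with BEC at 8.39 ± 0.29. Col LEC minus cap LEC was 0.43 ± 0.14 (95% interval 0.11 to 0.75, limma adjusted p = 0.247), and no step between neighbours passed. Vegfb, Vegfc, Flt1 and Kdr differed by 0.03 to 0.12 between col and cap LEC, with limma adjusted p from 0.723 to 0.912. The 95% intervals of these 4 differences allowed at most 0.25 for Vegfb and 0.23 for Kdr, but up to 0.43 for Vegfc and 0.69 for Flt1. With array weights, which let limma count noisier arrays less, 4 of the 8 genes were called between col and cap LEC: Flt4, Vegfa (0.50, adjusted p = 0.0255), Pgf (-1.03, adjusted p = 0.0223) and Nrp2 (-0.56, adjusted p = 0.047).

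Genes with the most similar profile over the 12 arrays were then listed, as a description of these arrays only. Flt4 was closest to Ahnak2, Kbtbd11 and Fndc1 (Pearson r = 0.999, 0.998 and 0.998 over 12 arrays, and 0.952, 0.960 and 0.963 over the 9 LEC arrays). The means of all 3 ran down from cap LEC to col LEC, with Fndc1 at 10.14 ± 0.11, 9.83 ± 0.17 and 9.41 ± 0.20 and at 6.51 ± 0.13 in BEC. Flt1 was closest to the ectonucleotidase gene Entpd1, the junctional adhesion gene Jam2 and the guanine deaminase gene Gda (r = 0.998, 0.998 and 0.996). Nrp2 was closest to Notch1 (r = 0.954), the lipid kinase gene Pip5k1c (0.938) and AW011738 (0.925), Vegfc to Hsp25-ps1 (0.994), the calcium pump gene Atp2a3 (0.993) and Magix (0.992), and Vegfb to Sema3a (0.973), Foxp4 (0.972) and Clca3a2 (0.967). The gap between LEC and BEC enters the values for Flt1, Flt4 and Vegfc, whose 100th closest gene still had r = 0.982, 0.979 and 0.973. The 3 genes closest to Vegfc had r = 0.784, 0.686 and 0.508 over the 9 LEC arrays. The gap also enters the values for Vegfb, whose closest gene Sema3a had r = 0.471 over the 9 LEC arrays. For Nrp2 the 100th closest gene had r = 0.83, and its 3 closest genes had r = 0.957, 0.955 and 0.943 over the 9 LEC arrays. Pgf was closest to Pdk2, Apoa2 and Mfap3 (r = 0.873, 0.869 and 0.838), Vegfa to Fxyd2, D10Wsu102e and Rassf10 (r = 0.891, 0.876 and 0.865) and Kdr to Ppp2r2a, Tbl1x and Heatr3 (r = 0.915, 0.911 and 0.884).

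The wider pathway was read from 7 lists of genes around the receptors. Of 10 genes that process VEGF-C and VEGF-D, or encode VEGF-D itself, 6 were tested. The proprotein convertase genes Pcsk7 (-0.54 ± 0.11, limma adjusted p = 0.00336) and Pcsk5 (-0.42 ± 0.10, limma adjusted p = 0.00922) were lower in LEC than in BEC, and 0 were higher, where 22.5% of all genes tested were called. Pcsk5 lost its call without BEC replicate 3 (limma adjusted p = 0.0585). Vegfd, the gene of the other VEGFR3 ligand, lay between 5.79 and 6.58 on all 12 arrays, around the array median, and Ccbe1, a cofactor of VEGF-C cleavage, differed by -0.05 ± 0.06. Adamts3, the protease of VEGF-C, and Svep1 were too dim to be tested, and Adamts2 and Ctsd were not analysed here. In col LEC minus cap LEC 0 of the 6 passed limma's test, and the smallest p were those of Vegfd (0.27 ± 0.16, limma adjusted p = 0.608) and Pcsk7 (-0.22 ± 0.13, limma adjusted p = 0.62).

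Of 19 tested co-receptors and surface partners, 7 were higher and 6 lower in LEC than in BEC, where 22.5% of all genes were called, with a median log2 difference of 0.05 beside -0.02 for all genes. Itgb3, the integrin beta 3 chain that forms complexes with VEGFR2, was higher by 2.27 ± 0.10 (limma adjusted p = 5.24e-09), and the tetraspanin gene Cd63 by 1.54 ± 0.06. Clec14a, an endothelial lectin-like receptor, was lower by a log2 difference of -2.18 ± 0.16 and Ptprb, the phosphatase that acts on VEGFR2 and TIE2, by -1.57 ± 0.06 (limma adjusted p = 1.42e-09). The LEC means of Clec14a (6.65 to 6.94) lay near the array medians, so its difference may be too small. Between col and cap LEC, 2 of the 19 were higher in col LEC and 0 lower, where 1.63% of all genes were called. Mmrn2, a matrix ligand of CLEC14A, was higher by 1.10 ± 0.11 (limma adjusted p = 0.000224) and the heparan sulphate carrier gene Sdc2 by 0.43 ± 0.10 (limma adjusted p = 0.04996). The Sdc2 call sat at the threshold and was lost in each of the 12 fits without 1 array (highest limma adjusted p = 0.198, without cap LEC replicate 2).

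Signal transduction genes below the receptors were split, with 5 higher and 6 lower in LEC among 25 tested (22.5% of all genes were called). The adaptor gene Shc1 (1.26 ± 0.11) and the exchange factor gene Vav3 (0.90 ± 0.13) were higher in LEC. Spry4 (-1.54 ± 0.13) and Spred2 (-1.50 ± 0.10), inhibitors of the RAS and ERK pathway, were lower (limma adjusted p at or below 0.000341 for these 4). Fyn, a SRC family kinase, was the only one of the 25 called in col LEC minus cap LEC, where 1.63% of all genes were (-0.69 ± 0.08, limma adjusted p = 0.000577).

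Among genes that VEGF induces in endothelium, 9 of 15 tested were lower in LEC than in BEC and 3 higher, where 22.5% of all genes were called, with a median of -0.44 beside -0.02 for all genes. The apelin gene Apln, a tip cell peptide, was lower by a log2 difference of -4.75 ± 0.26 (limma adjusted p = 4.43e-08) and the tip cell gene Esm1 by -2.38 ± 0.10. Esm1 lay around or below the array medians in LEC (group means of 5.95 to 6.10) and Apln at or just above them (6.2 to 6.58), so the exact size of both differences is uncertain. The early response gene Nr4a1 (-1.49 ± 0.17) and the protease gene Adamts1 (-1.31 ± 0.17) were lower too. In col LEC minus cap LEC, Adamts1 (2.10 ± 0.20) and the nitric oxide synthase gene Nos3 (1.38 ± 0.12) were higher and the gelatinase gene Mmp2 (-0.79 ± 0.12) lower, with limma adjusted p at or below 0.0061. Adamts1 had a BEC mean of 10.32 ± 0.17 (SD, n = 3), beside a col LEC mean of 10.14 ± 0.35, a pre-col LEC mean of 8.85 ± 0.38 and a cap LEC mean of 8.04 ± 0.18.

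**Figure D4:**
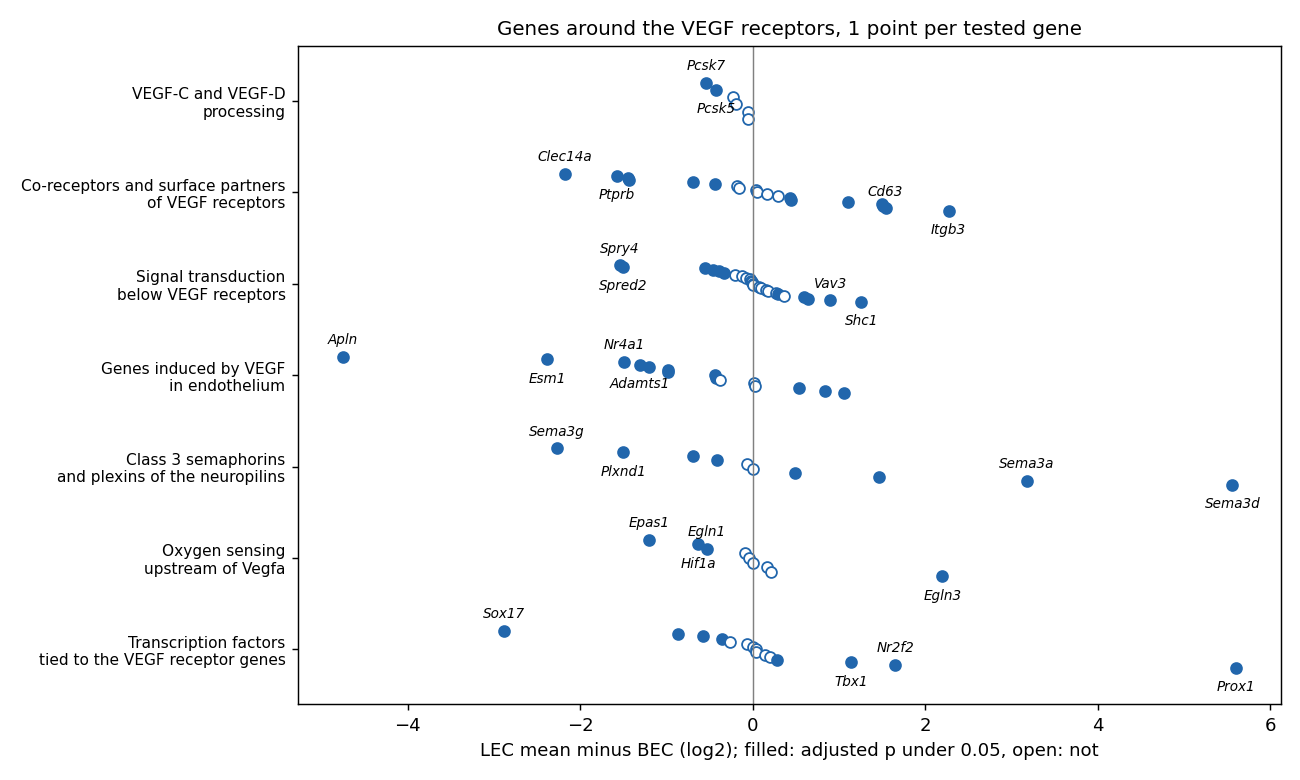
LEC mean minus BEC on the log2 scale for each tested gene of 7 lists around the VEGF receptors, with filled points for an adjusted p under 0.05 in limma's test. Genes induced by VEGF lie mostly to the left, led by Apln at -4.75, while the semaphorin and plexin list spreads from Sema3g at -2.27 to Sema3d at 5.56.

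Class 3 semaphorins share the neuropilins with VEGF and signal through plexins. Of 10 tested semaphorin and plexin genes, 4 were higher and 4 lower in LEC than in BEC, where 22.5% of all genes were called. Sema3d had means of 11.85 ± 0.10 (cap LEC), 11.96 ± 0.03 (pre-col LEC) and 12.20 ± 0.02 (col LEC), against 6.44 ± 1.02 for BEC (SD, n = 3), a difference of 5.56 ± 0.29 (limma adjusted p = 3.14e-08). Sema3a was higher by 3.18 ± 0.12 (limma adjusted p = 2.31e-09). The BEC means of Sema3d (6.44) and Sema3a (6.50) lay close to the array medians of 6.04 to 6.17, so both differences may be too small. Sema3g, a semaphorin of arteries, was lower by a log2 difference of -2.27 ± 0.15 and the receptor gene Plxnd1 by -1.50 ± 0.12. Between the ends of the LYVE1 gradient, col LEC minus cap LEC, 0 of the 10 passed limma's test, and the smallest p were those of Sema3a (0.40 ± 0.15, limma adjusted p = 0.334) and Sema3f (-0.26 ± 0.12, limma adjusted p = 0.502).

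Of 9 oxygen sensing genes that act upstream of Vegfa, 1 was higher and 3 were lower in LEC, where 22.5% of all genes were called. The HIF prolyl hydroxylase gene Egln3 was higher by 2.20 ± 0.09 (limma adjusted p = 3.05e-09). Epas1, which encodes HIF-2 alpha, was lower by a log2 difference of -1.20 ± 0.07, Hif1a by -0.63 ± 0.09 and Egln1 by -0.53 ± 0.11. In col LEC minus cap LEC 0 of the 9 passed limma's test, with Egln1 at -0.22 ± 0.13 and Hif1a at 0.18 ± 0.11 (limma adjusted p = 0.618 and 0.633).

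Of 15 transcription factor genes tied to the VEGF receptor genes, 4 were higher and 4 lower in LEC, beside 22.5% of all genes called. Prox1, used in the sort through its reporter, was higher by 5.60 ± 0.16, Nr2f2 by 1.65 ± 0.11 and Tbx1, a factor known to act on the Flt4 gene, by 1.14 ± 0.06 (limma adjusted p = 4.79e-08). Sox17, a factor of arterial endothelium, was lower by a log2 difference of -2.88 ± 0.10 (limma adjusted p = 1.36e-09). The LEC means of Sox17 (6.37 to 6.45) and the BEC mean of Prox1 (6.93) lay near the array medians, so both differences may be too small. Gata6 was higher in col LEC than in cap LEC by 1.32 ± 0.12 (limma adjusted p = 0.00013) and Mef2c lower by a log2 difference of -0.48 ± 0.08 (limma adjusted p = 0.0132). Mef2c lost its call without col LEC replicate 2 or 3 and without cap LEC replicate 2 or 3 (highest limma adjusted p = 0.0671, without cap LEC replicate 2), with differences from -0.50 to -0.46 over the 12 fits. In pre-col LEC minus cap LEC limma called 0 genes of the 7 lists.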

How the data were processed

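Sorted endothelial cells of 4 populations were measured on Affymetrix whole-transcript arrays, 3 arrays a population, from 500 pg of RNA per array per the labels' protocols. The authors deposited 1 table of log2 values made by RMA, per the submitters' processing notes. The table's software version, annotation and build were not given in the sources used here. RMA subtracts background, normalizes between arrays and summarizes probes, which narrows differences of dim genes. Rows were named through the platform annotation, older symbols were updated through RefSeq, and the brightest row stood for a gene. A gene was tested if it lay above the array's median on at least 3 of the 12 arrays. All 12 arrays entered 1 limma 3.58.1 fit (R 4.3.3; lmFit and eBayes), and p-values were adjusted by Benjamini-Hochberg over 19745 genes per comparison. Standard errors, intervals and adjusted p are limma's. The number of arrays limits the precision.

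The named genes were the 8 VEGF genes, up to 4 called genes of each pathway list with the largest change (with 0 called, the 2 with the smallest p), and the 3 genes closest to each VEGF gene by Pearson correlation, leaving out predicted genes and small RNAs. Ccbe1, Adamts3 and Svep1 were named beside them for their role with VEGF-C. The VEGF genes and all lists were chosen with earlier results of these data known. Marker means left out the VEGF genes, while Thy1 counted in both the lymphatic and the fibroblast list. Alternatives were cyclic loess, quantile normalization, no filter, array weights, only the groups compared, the replicate number as a block, the mean of all rows of a gene, and leaving out each array. Same-numbered arrays were not treated as pairs.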

Additional observations from a re-analysis of the deposited data

How the results depend on the processing

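All 8 VEGF genes were fitted again under 7 other settings and 12 fits that left out 1 array. For LEC mean minus BEC and for each LEC group minus BEC, the counts of VEGF genes and of all genes called stayed within 1.5 times the values reported. Between col and cap LEC, 1 VEGF gene was called. The count was 0 after cyclic loess, after quantile normalization and with no filter, 4 with array weights, and 0 to 1 without 1 array. Of all genes, 322 were called there, 792 with array weights and 180 to 350 without 1 array. For pre-col LEC minus cap LEC 0 genes were called, 14 after cyclic loess, 7 after quantile normalization, 28 with array weights and 0 to 1 without 1 array. For col LEC minus pre-col LEC 59 were called, 153 with array weights, 5 with only the groups compared and 24 to 63 without 1 array, with 0 to 1 VEGF genes. The cause of these shifts was not tested. Over single VEGF genes and settings, 1018 results kept their side of the threshold, 22 passed it newly, 22 lost it and 2 moved. The 1018 kept their direction or, where not called, changed sign by less than the standard error. The 2 that moved changed sign by more and were not called.

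The labels do not say that a replicate number marks a shared mouse or day, and same-numbered arrays of different groups deviated together (r over 0.1) in 7 of 18 pairs, not in all, so the numbers were not taken as pairs. Different-numbered arrays did so in 2 of 36 pairs. Among the LEC groups all 9 same-numbered pairs had r above 0 (0.0455 to 0.208, 5 over 0.1), against 4 of 18 different-numbered pairs. The deviations sum to 0 within each group, so a positive r in same-numbered pairs pulls the others down. The counts for same and different numbers are therefore not independent. Over all groups, BEC included, an array correlated best with its own number in another group in 28 of 36 cases. The pairs among LEC are a hint from the data that numbers are shared there. With the replicate number as a block, 2 VEGF genes were called between col and cap LEC, Flt4 and Nrp2 (-0.62, limma adjusted p = 0.0293), and 3 genes in all in pre-col LEC minus cap LEC. Nrp2 was also called with the block in LEC mean minus BEC (0.41, limma adjusted p = 0.011) and in pre-col LEC minus BEC (0.47, limma adjusted p = 0.0217). The same alternatives for the pathway genes were chosen after seeing the data.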
